A study of Mus musculus with 21 samples.

Results

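The genes described are enzymes of sterol synthesis, Hmgcs1, Idi1, Fdps, Fdft1, Sqle, Cyp51 and Msmo1, together with Insig1, a membrane protein that holds back the pathway when sterols are plentiful. They were chosen by name, with earlier results of these data known. Of the 8, 7 were found by GENCODE mouse symbol among the 5544 genes of the deposited table of the cortex. Fdps is not in that table and is not analysed here. The values are variance-stabilized RNA-seq counts on a log2 scale, so a difference of 1 is a doubling, and the table spans 4.59 to 17.68. Total RNA was sequenced from the cortex of male wild-type C57BL/6 mice aged 12 weeks, 1 library per mouse. The HF-HI group (high-frequency head impact, n = 11) received repeated mild impacts to the head under brief anaesthesia and was sampled 24 hours after the last one. The control group (sham, n = 10) went through the same procedure, anaesthesia included, without the impacts.

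Cholesterol does not cross the blood-brain barrier in useful amounts, so the brain makes its own. Acetyl units are joined and reduced to mevalonate, mevalonate is turned into isoprenoid units, these are condensed to squalene, and squalene is closed into a ring and trimmed to cholesterol. When membrane sterol falls, SCAP leaves INSIG and carries the factor SREBP-2 to the Golgi, where it is cleaved so that it can raise transcription of the genes of the pathway. In the brain, astrocytes and oligodendrocytes are the main makers in the adult, and neurons dispose of cholesterol by oxidizing it with Cyp46a1.

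The depth of the libraries in reads is unknown, since the files hold no counts. A relative depth was read from the spacing of 2 to the power of the value, over genes where this lay between 500 and 600. It ran from 0.580 to 1.26 in sham (median 0.864) and from 0.548 to 1.64 in HF-HI (median 1.17). The slope of a library's values on exonic GC content separated the groups more clearly. It was -0.11 ± 0.078 log2 per 10% GC in sham (SD, n = 10) and 0.096 ± 0.060 in HF-HI (SD, n = 11). The part of depth and GC content in the differences between the groups was not tested, and values with the GC trend of each library removed are given beside many of the results. HF-HI replicate 9 stood apart: its values scattered around the mean of its group with an SD of 0.232 over all genes, against 0.0981 to 0.152 in the other HF-HI libraries and 0.130 to 0.180 in sham. Its relative depth was 0.573 and its GC slope -0.039, the lowest slope of the HF-HI libraries. Results are given with it and, where it matters, without it.

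The table held markers from each of 6 lists of brain cell types. All 12 listed neuron markers, 11 of 12 oligodendrocyte markers and 10 of 12 astrocyte markers were in the table. Markers of microglia (2 of 10), endothelial and mural cells (2 of 9) and oligodendrocyte precursors (OPC, 2 of 6) were fewer in it, and the listed markers outside the table are not analysed here.

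Upstream sequences of these genes were searched for short motifs that sterol control is known to use. In the RefSeq GRCm38.p6 promoter table, windows were found for 5 of the 7 genes, and Fdft1 and Sqle have no entry. The 250 bases before each start were searched on both strands for TCACNCCAC and the shorter TCACNCCA nested in it (forms of the sterol regulatory element), for CCAAT, and for GGGCGG. Hmgcs1, Insig1 and Cyp51 are shown because their upstream bases lie clear of annotated exons, for Insig1 and Cyp51 after the exonic bases next to the start were left off. Capitals mark the motif matches on either strand, and each sequence is written 5' to 3' on the strand of its gene. The bases of Hmgcs1 are chr13:119690101-119690350 (plus strand), those of Insig1 chr5:28071162-28071362 (plus strand) and those of Cyp51 chr5:4104747-4104947 (minus strand).
Hmgcs1: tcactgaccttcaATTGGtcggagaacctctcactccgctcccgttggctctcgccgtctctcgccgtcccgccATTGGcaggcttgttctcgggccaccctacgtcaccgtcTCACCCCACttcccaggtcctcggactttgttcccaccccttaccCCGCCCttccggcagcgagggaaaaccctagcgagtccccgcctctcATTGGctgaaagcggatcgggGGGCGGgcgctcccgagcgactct
Insig1: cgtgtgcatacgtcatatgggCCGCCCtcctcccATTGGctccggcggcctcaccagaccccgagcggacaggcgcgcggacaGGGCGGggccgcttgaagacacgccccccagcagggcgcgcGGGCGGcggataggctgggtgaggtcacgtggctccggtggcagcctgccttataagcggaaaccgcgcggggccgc
Cyp51: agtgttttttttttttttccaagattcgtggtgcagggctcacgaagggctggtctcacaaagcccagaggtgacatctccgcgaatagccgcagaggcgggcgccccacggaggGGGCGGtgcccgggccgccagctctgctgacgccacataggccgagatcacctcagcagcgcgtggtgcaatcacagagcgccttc
The longer sterol element form was in 1 of the 5 windows, that of Hmgcs1, from base -137 to -129, and in 1.05% of all 32851 windows. The shorter form was in Hmgcs1 and, from -177 to -170, in Msmo1, against 3.67% of all windows. CCAAT was in 5 of 5 windows against 33.8% of all, and GGGCGG in 5 of 5 against 32.7%. The shares over all windows were not matched for GC content, which ran from 51.2% (Idi1) to 72.8% (Insig1) in the 5 windows. The CCAAT of Cyp51, from -29 to -25, and the matches in the Idi1 and Msmo1 windows, the shorter sterol element form of Msmo1 included, lie in annotated exonic bases that are not shown. A match describes the letters and does not show a bound factor, and a missing match says only that these letters are not in the window.

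Hmgcs1 (ENSMUSG00000093930, GRCm38 chr13:119690379-119708260) makes HMG-CoA, an early intermediate on the way to mevalonate. Its values were 11.86 at the lowest, 12.17 at the median and 12.49 at the highest in sham, and 11.78, 11.98 and 12.47 in HF-HI. Sham replicate 6 and HF-HI replicate 9 were the highest of their groups, sham replicate 2 and HF-HI replicate 3 the lowest, and the groups overlapped along nearly their whole length. HF-HI minus sham was -0.13 (SE 0.088, limma, adjusted p = 0.186 by Benjamini-Hochberg over all 5544 genes, 95% interval -0.31 to 0.049), and 7 of 11 HF-HI libraries were below the sham median. The test was not passed, and the difference was -0.037 with the GC trend removed.

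Idi1 (ENSMUSG00000058258, GRCm38 chr13:8885501-8892451) isomerizes the isoprenoid unit so that chains can be built. Sham values ran from 8.50 through a median of 8.87 to 9.11, and HF-HI values from 8.81 through 8.97 to 9.47. HF-HI replicate 9 was the highest of all libraries and sham replicate 2 the lowest, and the groups overlapped. Idi1 rose by 0.22 (SE 0.076, limma, adjusted p = 0.0136), which is 16.5%, with 9 of 11 HF-HI libraries above the sham median. Without HF-HI replicate 9 the rise was 0.18 (adjusted p = 0.0222). With the libraries centred on their medians it was 0.17 and missed the threshold (adjusted p = 0.0577), and with the GC trend removed it was 0.33, in a range of adjusted p over all alternatives from 1.70e-04 to 0.0577.

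Fdft1, squalene synthase, makes the first committed step towards sterols. Its values were 9.24, 9.31 and 9.46 at the lowest, median and highest in sham, and 9.06, 9.19 and 9.38 in HF-HI. Sham replicate 1 stood above the rest of its group, HF-HI replicate 2 was the highest HF-HI library, and the groups overlapped. Fdft1 fell by 0.11 (SE 0.038, limma, adjusted p = 0.0162), with 9 of 11 HF-HI libraries below the sham median. Its exons have the highest GC content of the 7 genes, 53.6% against a median of 47.6% over the table, and with the GC trend removed the difference was -0.24 (adjusted p = 3.18e-05, in a range over all alternatives from 3.18e-05 to 0.0636).

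Sqle, squalene epoxidase, adds the oxygen that the ring closure needs. Its sham values (8.95, 9.02 and 9.28 at the lowest, median and highest) and HF-HI values (8.88, 9.05 and 9.35) covered the same span. The difference was 0.0034 (limma, adjusted p = 0.956, 95% interval -0.10 to 0.11), and its sign turned with the scaling, to -0.049 with library medians centred and -0.030 with quantile normalization. The sign also turned without any 1 of sham replicates 2, 3, 4, 9 and 10 or HF-HI replicates 7 and 9, to values from -0.025 to -0.0034, so no direction is given for Sqle.

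Cyp51 removes the first methyl group from the closed ring. Sham values were 9.13, 9.43 and 9.56, and HF-HI values 9.07, 9.29 and 9.46, each at the lowest, median and highest. The HF-HI libraries sat lower, 9 of 11 below the sham median, but the groups overlapped and the difference of -0.097 (SE 0.058) did not pass the test (limma, adjusted p = 0.143). With library medians centred it was -0.15 and passed (adjusted p = 0.0321, in a range over all alternatives from 0.0321 to 0.598), and with the GC trend removed it was -0.054.

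Msmo1 (ENSMUSG00000031604, GRCm38 chr8:64718139-64733792) oxidizes the next methyl groups of the sterol ring. In sham its values were 9.81 at the lowest, 9.99 at the median and 10.26 at the highest, and in HF-HI 9.51, 9.73 and 9.96. Every HF-HI library was below the sham median (11 of 11), HF-HI replicate 9 was the highest of them and sham replicate 10 the lowest of sham, and the tails of the groups overlapped. Msmo1 fell by 0.29 (SE 0.062, limma, adjusted p = 3.10e-04), a change of -18.1%. The fall was 0.31 without HF-HI replicate 9 and 0.23 with the GC trend removed, where that of Fdft1 was 0.24.

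Insig1 (ENSMUSG00000045294, GRCm38 chr5:28071363-28078662) retains SCAP in the endoplasmic reticulum and is itself a target of SREBP-2. Its values were 9.94, 10.15 and 10.36 in sham and 9.78, 9.88 and 10.32 in HF-HI, at the lowest, median and highest. Only HF-HI replicate 9 of the HF-HI libraries was above the sham median, sham replicate 1 was the highest of its group, and the groups overlapped. Insig1 fell by 0.19 (SE 0.066, limma, adjusted p = 0.0131), a change of -12.5%, with 10 of 11 HF-HI libraries below the sham median. Without HF-HI replicate 9 the fall was 0.23.

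**Figure D1:**
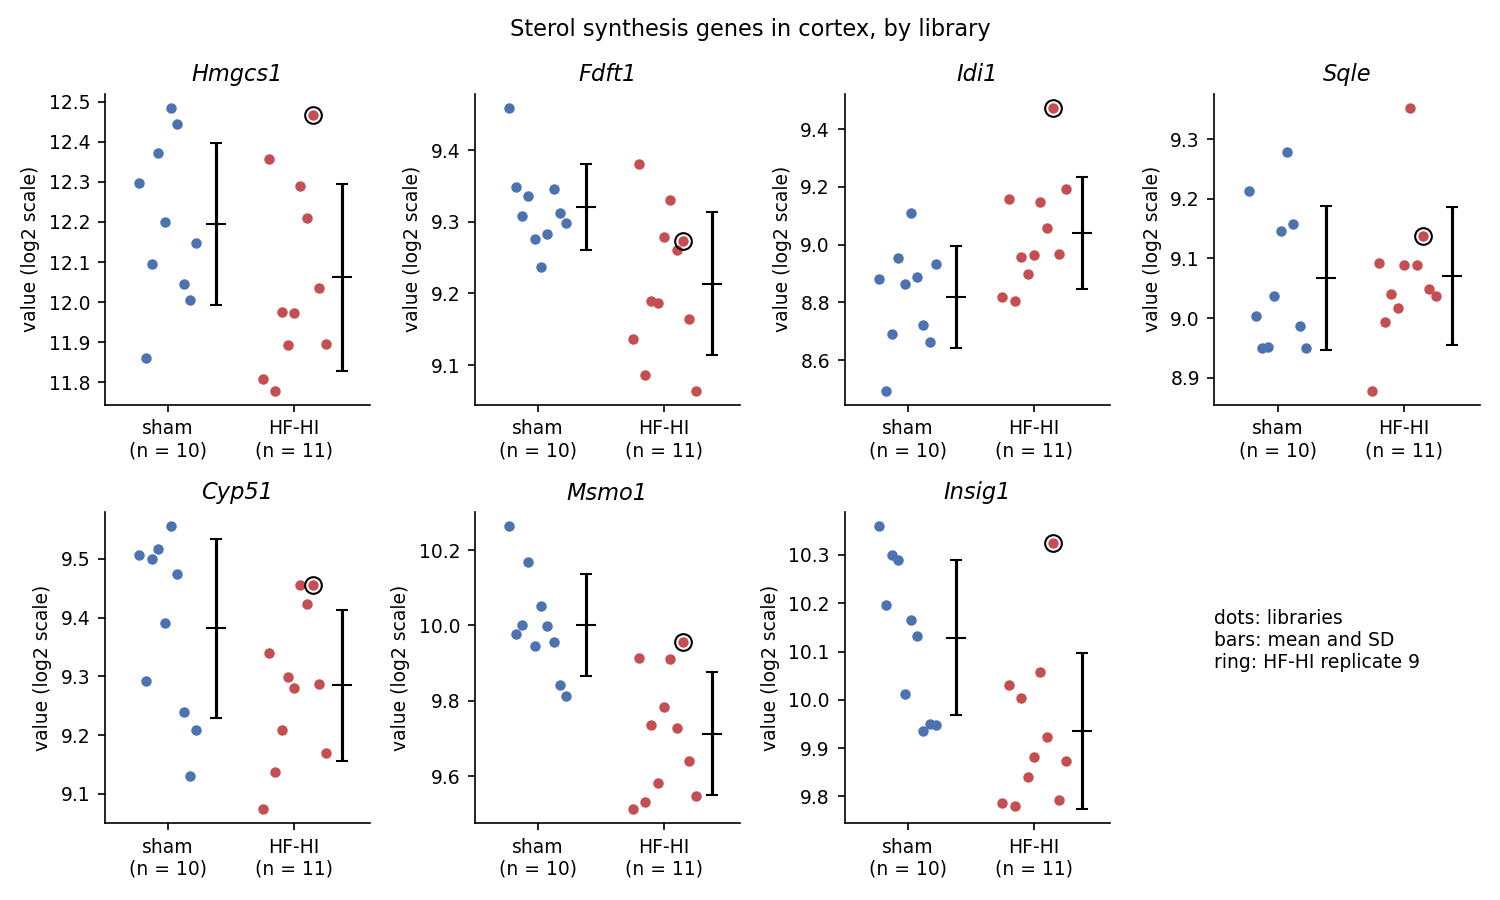
Value of each of the 7 genes (log2 scale, vertical axis) in each of the 10 sham and 11 HF-HI libraries (dots), with the mean and SD of each group beside them and a ring around HF-HI replicate 9. Msmo1 has all 11 HF-HI dots below the sham median of 9.99, and the groups overlap for all 7 genes.

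Of the 7 genes, 4 passed the test, 1 higher and 3 lower in HF-HI, against 66.3% of all 5544 genes tested (32.6% higher, 33.6% lower). The share of 57.1% is near that background and is not a result about sterol genes. Groups did not overlap for 0 of the 7, against 13.5% of all genes. The median difference was -0.11 over the 7 and -0.0086 over all genes, against -0.054 and -0.0096 with the GC trend removed and -0.16 and -0.061 with the libraries centred. Centring the libraries moved the whole table, from 1810 higher and 1864 lower genes to 1448 higher and 2376 lower, and then 0 of the 7 were higher and 4 lower. Without HF-HI replicate 9 the counts were again 1 higher and 3 lower. In bulk tissue, fewer cells of a type and less RNA per cell cannot be told apart.

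The order of the levels was compared per kb of exonic sequence, as 2 to the power of the value. In sham, Hmgcs1 stood first with 1030 ± 144 per kb (SD, n = 10), followed by Insig1 with 364 ± 40.4. Msmo1 (168 ± 16.2), Cyp51 (152 ± 15.7), Fdft1 (151 ± 6.41) and Idi1 (130 ± 15.7) were close together, and neighbours among them did not differ beyond about their spread. Sqle came last with 97.0 ± 8.33. In HF-HI the ends of the order were the same, Hmgcs1 at 942 ± 157 and Sqle at 97.2 ± 8.12 (SD, n = 11), while Idi1 (152 ± 21.6) had passed Msmo1 (137 ± 15.7), again within their spread.

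The genes were also set against each other within each library. The log2 ratio of Idi1 to Msmo1 ran from -1.48 through a median of -1.20 to -0.88 in sham and from -0.82 through -0.69 to -0.36 in HF-HI. All HF-HI libraries were above all sham libraries, HF-HI replicate 9 included. The means differed by 0.51, by 0.49 without HF-HI replicate 9 and by 0.56 with the GC trend removed. Idi1 over Hmgcs1 also separated the groups, from -3.55 to -3.22 in sham against -3.20 to -2.70 in HF-HI, although the gap between the nearest libraries was small. Groups did not overlap for 2 of the 21 ratios among the 7 genes, against 14.2% of all gene pairs of the table. With the GC trend removed they did not overlap for 4 of the 21, all of them ratios of Idi1 to another gene, against 12.8% of all gene pairs. These shares lie on either side of the background and are not a result about these genes. Idi1 over each of the other 6 genes was higher in HF-HI by 0.22 to 0.51, while Cyp51 over Fdft1 differed by 0.0094, or by 0.18 with the GC trend removed. The ratios were chosen after the values were seen and are a description with no test.

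**Figure D2:**
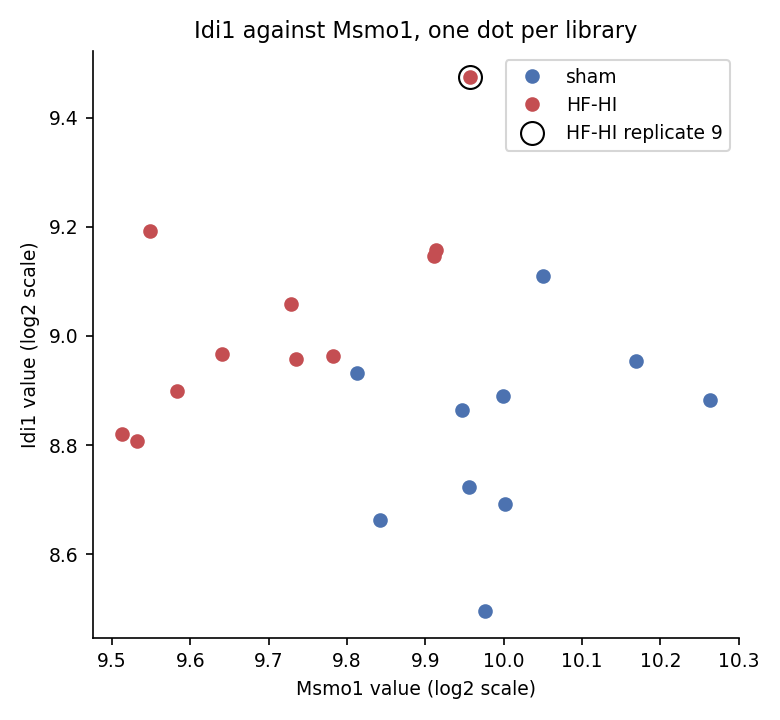
Idi1 value against Msmo1 value (log2 scale, both axes), 1 dot per library, sham and HF-HI in different colours and a ring around HF-HI replicate 9. The groups overlap on each axis taken alone. Their log2 ratios of Idi1 to Msmo1 do not, at -0.82 or more in HF-HI against -0.88 or less in sham.

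The other enzymes of the pathway did not move as a block. Over all 5544 genes 32.6% were higher and 33.6% lower. Counts of the lists here and below stand beside those shares and are not a result about any list. Of the early mevalonate list, 4 of 9 genes were in the table, with 1 higher (Idi1), 1 lower and 2 not past the test and a median difference of -0.10, or -0.037 with the GC trend removed. The gene that was lower, Ggps1, makes the longer isoprenoid used for protein anchors and leaves the sterol path. It fell by 0.23 (adjusted p = 1.91e-05), and by 0.11 with the GC trend removed.

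Of the squalene and post-squalene list, 7 of 12 genes were in the table, with 1 higher, 2 lower and 4 not past the test and a median of 0.0034, which turned to -0.014 with the GC trend removed, -0.049 with the libraries centred and -0.030 with quantile normalization. The 2 lower genes were Fdft1 and Msmo1. Lss, which closes the ring, differed by 0.024 and Sc5d, a late desaturase, by 0.018, and neither passed the test (adjusted p = 0.597 and 0.678). Both signs turned with library medians centred, to -0.028 for Lss and -0.033 for Sc5d, and that of Sc5d also without HF-HI replicate 9, to -0.0011. With the GC trend removed, Lss was at -0.014, while Sc5d was higher in HF-HI by 0.089 and passed (adjusted p = 0.0124, in a range over all alternatives from 0.0124 to 0.978).

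The genes that sense sterol and process SREBP went both ways, as genes of the whole table did. Of 10 listed, 9 were in the table, with 2 higher, 3 lower (Insig1 among them) and 4 not past the test and a median of 0.018, which turned to -0.031 with the GC trend removed, -0.034 with the libraries centred and -0.027 with quantile normalization. Srebf2, which encodes SREBP-2, had values of 9.78, 10 and 10.19 in sham and 10.16, 10.41 and 10.68 in HF-HI, so that the groups met only at their edges. It rose by 0.40 (SE 0.058, limma, adjusted p = 2.65e-06), and by 0.23 with the GC trend removed. Scap, its escort, rose by 0.21 (adjusted p = 0.00162) but by 0.060 with the GC trend removed, which did not pass (adjusted p = 0.184, in a range over all alternatives from 3.63e-04 to 0.206). Rnf139, a ubiquitin ligase of the endoplasmic reticulum, moved the other way, by -0.25 (adjusted p = 1.99e-05) and by -0.16 with the GC trend removed. Srebf2 and Insig1, at opposite sides of sterol control, therefore passed the test in opposite directions.

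Sterol uptake and transport had 6 of 11 genes in the table, with 3 higher, 2 lower and 1 not past the test and a median of 0.11. The median was 0.061 with the libraries centred and 0.051 with quantile normalization. Lrp1, a receptor for lipoproteins, rose by 0.32 (limma, adjusted p = 5.08e-07) with groups that did not overlap, and by 0.11 with the GC trend removed. Lrp8, the receptor for apolipoprotein E and reelin, rose by 0.19 (adjusted p = 0.00111) but did not pass with the GC trend removed (0.10, adjusted p = 0.0764, in a range over all alternatives from 9.12e-05 to 0.140). Npc1, which exports cholesterol from lysosomes, rose by 0.15 (adjusted p = 1.69e-04), and Osbp, which exchanges sterol between membranes, fell by 0.15 (adjusted p = 5.78e-05).

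The list of sterol efflux, storage and turnover had 5 of 11 genes in the table, with 2 higher, 0 lower and 3 not past the test and a median of 0.031, which turned to -0.021 with the libraries centred and -0.011 with quantile normalization. Apoe and Soat1, named after their values were seen, differed by 0.026 and 0.031, but with the GC trend removed Apoe was lower by 0.19 and Soat1 higher by 0.10, and both passed the test. Cyp46a1, the neuronal hydroxylase by which cholesterol leaves the brain, was one of the 2 that were higher. Its values were 9.43, 9.701 and 9.95 in sham and 9.94, 10.29 and 10.40 in HF-HI, with the lowest HF-HI library just under the highest of sham. Cyp46a1 rose by 0.57 (SE 0.058, limma, adjusted p = 2.90e-08), and by 0.38 with the GC trend removed. Abcg1, a sterol exporter, was higher by 0.13 (adjusted p = 0.0274). That call was lost without sham replicate 6 (0.11, adjusted p = 0.0603), without sham replicate 7 (0.11, adjusted p = 0.0589), with the GC trend removed (0.050) and with each library centred on its median (0.083), in a range of adjusted p over all alternatives from 0.00340 to 0.4664.

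**Figure D3:**
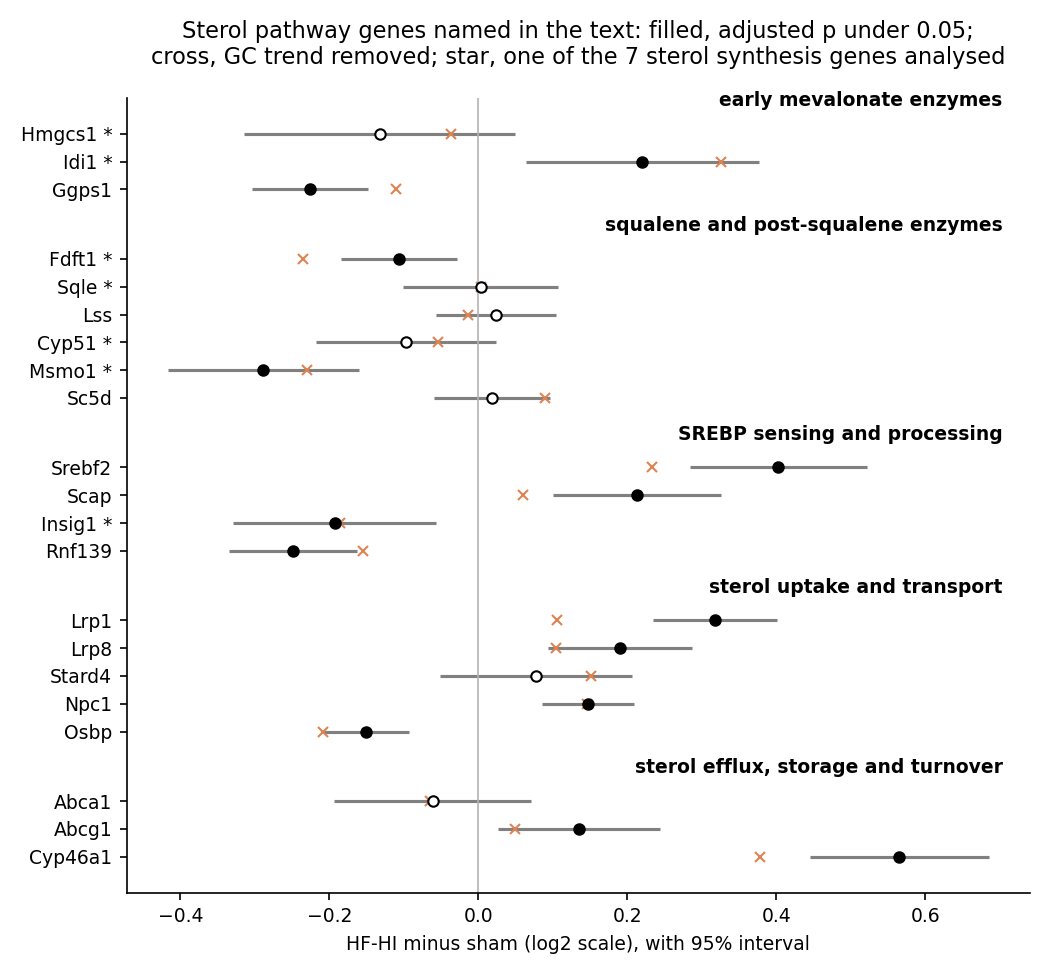
HF-HI minus sham (log2 scale, horizontal axis) for the 7 genes and the other genes of 5 sterol lists named here, with 95% intervals, filled dots for adjusted p under 0.05 and crosses for the values with the GC trend removed. Cyp46a1 (0.57) and Srebf2 (0.40) lie far to the right and Msmo1 (-0.29) far to the left. Srebf2 and Insig1, which belong to the same list, fall on opposite sides of 0.

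The branch that turns isoprenoids to other uses had 4 of 12 genes in the table, with 1 higher, 2 lower and 1 not past the test and a median of -0.14, or -0.22 with the GC trend removed. Nus1, part of the enzyme that makes dolichol, rose by 0.25 (limma, adjusted p = 7.95e-05). Coq2, which joins the tail of ubiquinone to its ring, fell by 0.31 (adjusted p = 3.07e-06), and Rabggtb, which attaches isoprenoids to Rab proteins, by 0.24 (adjusted p = 7.55e-04). Fatty acid synthesis, which SREBP-1 is known to control, had 12 of 13 genes in the table, with 5 higher, 2 lower and 5 not past the test and a median of -0.022. That median was -0.0066 with the GC trend removed, -0.074 with the libraries centred and -0.071 with quantile normalization. The largest differences of the list were those of the desaturases and the synthase. Scd2 rose by 0.50 (adjusted p = 3.23e-08), Fasn by 0.40 (adjusted p = 3.46e-06), Fads2 by 0.39 (adjusted p = 5.39e-06) and Scd1 by 0.20 (adjusted p = 0.00939). With the GC trend removed the rise was 0.16 for Fasn and 0.25 for Fads2.

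The covariation of the genes was measured within each group. Across the 10 sham libraries, 18 of 21 pairs of the 7 genes had a positive Pearson r, with a median of 0.379, and across the 11 HF-HI libraries 21 of 21 did, with a median of 0.770. The median Spearman rho was 0.297 in sham and 0.809 in HF-HI. Over all 15365196 gene pairs of the table the median r was -3.9e-04 in sham and -7.7e-04 in HF-HI, and 22.0% of them in sham but 1.85% in HF-HI had an r above the median of the sterol pairs. Without the 2 libraries farthest from the median of the first gene, the median r was 0.311 in sham, with 17 of 21 positive, and 0.811 in HF-HI, with 21 of 21 positive. A permutation test with Benjamini-Hochberg adjustment over the 42 relations gave adjusted p under 0.05 for 5 pairs in sham and 17 in HF-HI. The 7 genes were chosen with earlier results of these data known, and the adjustment does not cover that choice. Whether covariation differed between the groups was not tested.

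In sham, the closest pair was Hmgcs1 with Idi1, both of the early part of the pathway (r = 0.905, permutation p = 4.6e-04, adjusted p = 0.00276, n = 10). Its rho was 0.891 (permutation p = 0.00124) and its r without the 2 farthest libraries 0.786. Msmo1 and Insig1 came next (r = 0.847, permutation p = 8.4e-04, adjusted p = 0.00392, n = 10), with a rho of 0.842 (permutation p = 0.00384) and an r of 0.731 without the 2 farthest libraries. The other 3 pairs past the threshold joined Cyp51 to genes of both these pairs, to Insig1 (r = 0.795), Msmo1 (r = 0.779) and Hmgcs1 (r = 0.739), with adjusted permutation p of 0.0228, 0.0169 and 0.0367 (n = 10). Their rho was 0.733, 0.903 and 0.758 and their r without the 2 farthest libraries 0.670, 0.588 and 0.731. Fdft1 had a negative r with Idi1 (-0.311), with Hmgcs1 (-0.246) and with Cyp51 (-0.0095), none of them past the threshold (permutation p = 0.386, 0.515 and 0.981, n = 10). These signs turned with the GC trend removed, to 0.065, 0.281 and 0.599, and without the 2 farthest libraries the values were -0.525, 0.106 and -0.194. With Msmo1 and Insig1, Fdft1 had a positive r in sham (0.561 and 0.431, or 0.811 and 0.857 with the GC trend removed).

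In HF-HI, the closest pair was Hmgcs1 with Msmo1 (r = 0.922, permutation p = 1.1e-04, adjusted p = 0.00231, n = 11). Its rho was 0.90 (permutation p = 2.8e-04) and its r without the 2 farthest libraries 0.854. Fdft1 had an r of 0.895 with Msmo1 (permutation p = 3.0e-04, adjusted p = 0.00276, rho = 0.891 with permutation p = 4.1e-04, n = 11), and 0.841 without the 2 farthest libraries. Fdft1 with Idi1 had the lowest r (0.449, permutation p = 0.166, n = 11), but 0.785 with the GC trend removed, where Sqle with Insig1 had the lowest (0.604). HF-HI replicates 9, 7 and 2 were the high libraries and replicates 1 and 3 the low ones. Without replicate 9 the median r of the 21 pairs was 0.752.

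**Figure D4:**
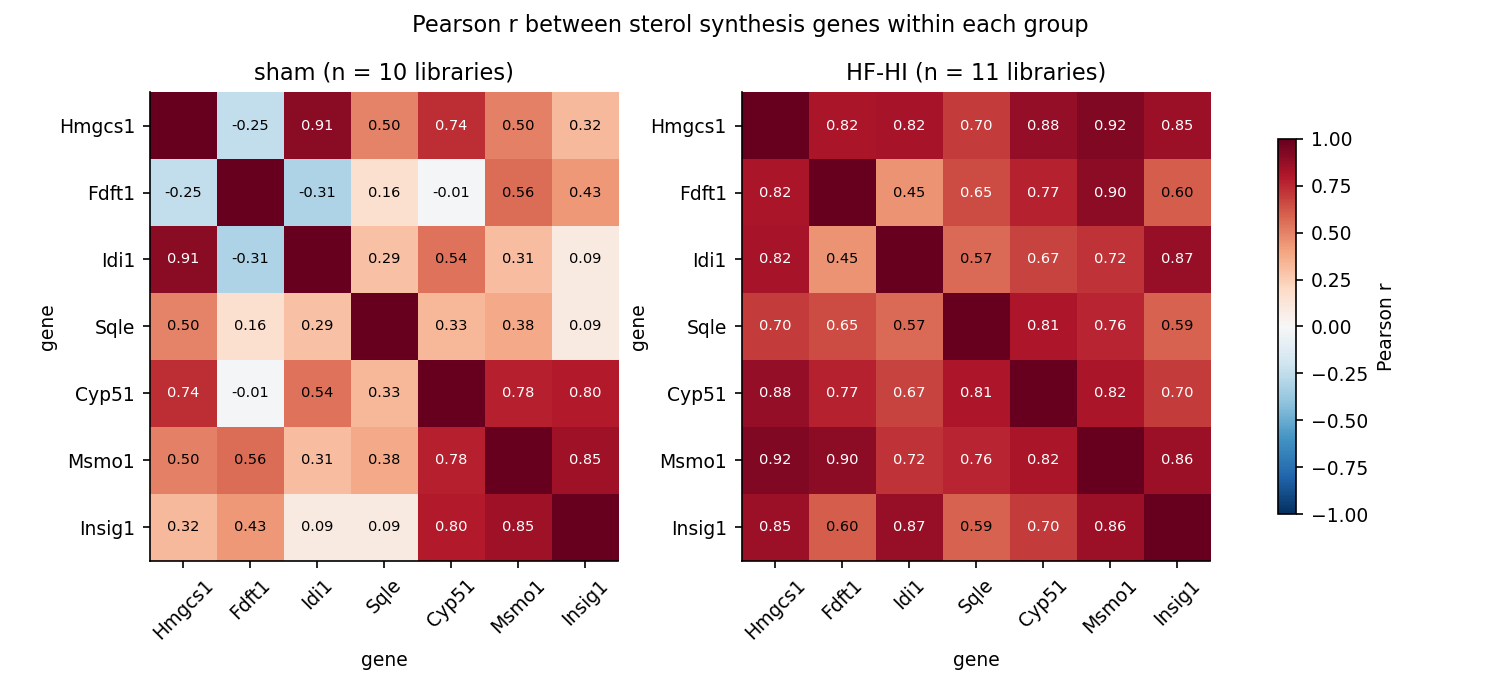
Pearson r of each pair of the 7 genes within the 10 sham libraries (left) and the 11 HF-HI libraries (right), with genes on both axes. The HF-HI panel is positive throughout, from 0.449 to 0.922, and the sham panel runs from -0.311 to 0.905, its negative values all in the Fdft1 line. With the GC trend removed those 3 values are positive.

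Technical measures of the libraries were set beside this covariation. The mean standardized residual of the 7 genes, each taken from its group mean, had an r of -0.0491 with log2 relative depth and of -0.576 with the GC slope over the 21 libraries. With the GC trend removed, the median r of the pairs was 0.363 in sham and 0.791 in HF-HI, so it was about as large. Then the lowest r was -0.080 in sham and 0.604 in HF-HI, and 21.1% and 0.982% of all gene pairs lay above the medians. The r with the summed level of the oligodendrocyte markers was 0.0489, of the astrocyte markers -0.173, of the neuron markers -0.217, of the microglia markers -0.0411, of the endothelial and mural markers -0.318 and of the OPC markers -0.289. The pooled value for oligodendrocyte markers covered opposite signs within the groups. In sham the r of the single oligodendrocyte genes ran from 0.176 (Cldn11) to 0.783 (Mbp). In HF-HI it ran from -0.614 (Cldn11) to 0.088 (Mal), and only that of Mal was positive. These r values are descriptions over libraries that share their groups, and the part of the markers in the covariation was not tested.

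**Figure D5:**
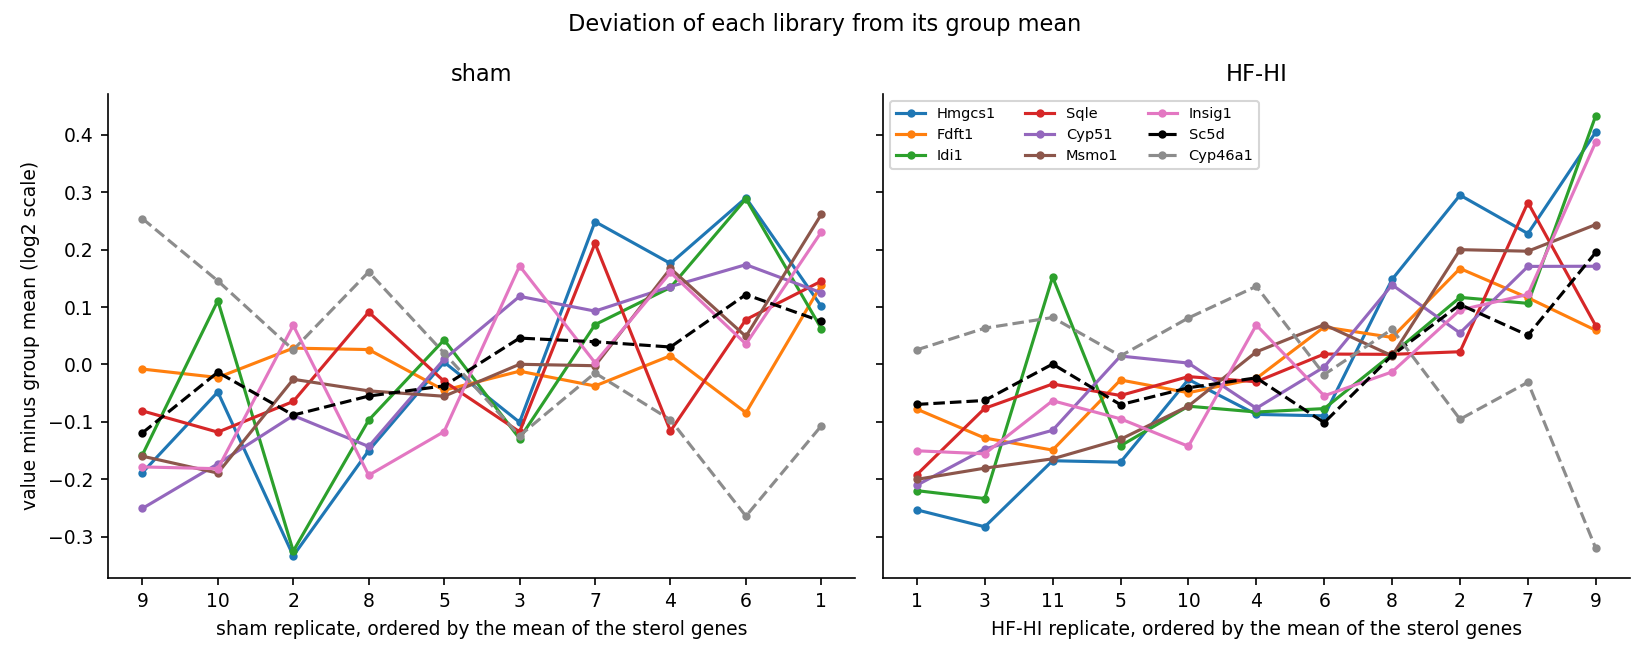
Value minus group mean (log2 scale, vertical axis) of the 7 genes (solid lines), Sc5d and Cyp46a1 (broken lines) in each library, ordered within each group by the mean of the 7 genes. The order itself makes the 7 lines climb, and Sc5d and Cyp46a1 are drawn for their r with the same mean (0.837 and -0.723), so their rise and fall along it follow from that choice.

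The likeness of a gene to the sterol genes was measured as Pearson r over the 21 libraries between its residuals from the group means and the mean standardized residual of the 7 genes, or of the other 6 for one of them. Msmo1 was closest to the rest (0.913), then Hmgcs1 (0.861), Cyp51 (0.818), Insig1 (0.741), Idi1 (0.639), Sqle (0.598) and Fdft1 (0.573). The value for Fdft1 was 0.847 with the GC trend removed. Among the 10 most like them of the 5537 other genes was Sc5d (0.837), a further sterol enzyme that the selection did not include. Its r was 0.829 with the GC trend removed and 0.80 without HF-HI replicate 9. Stard4, a carrier of cholesterol between membranes, was also among them (0.781). So were Ldha (0.792), Cul5 (0.786), Psma4 (0.783), Pdha1 (0.769), Dpp8 (0.767), Ola1 (0.759) and Nckap1 (0.753). Ldha and Pdha1 encode enzymes that use pyruvate, Cul5 a scaffold of ubiquitin ligases and Psma4 a subunit of the proteasome. Of the first 10, 6 were in the first 10 without HF-HI replicate 9 and 7 with the GC trend removed, where Cul5 was at 0.665.

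Several genes that dispose of sterol ran the opposite way. Cyp46a1 had an r of -0.723 with the sterol genes, -0.644 without HF-HI replicate 9 and -0.624 with the GC trend removed. It was -0.801 within sham and -0.712 within HF-HI. Abcg1 (-0.599) and Abca1 (-0.589), both sterol exporters, and Lrp1 (-0.562) were also negative, as was Srebf2 (-0.559). With the GC trend removed, Abcg1 was at -0.550, Abca1 at -0.584 and Srebf2 at -0.451, while Lrp1 was at -0.182. The median over the efflux, storage and turnover list was -0.589, against 0.0029 over all genes outside the 7, and -0.550 against -0.0046 with the GC trend removed. The median was 0.211 for uptake and transport, -0.213 for SREBP sensing and processing and 0.0956 for fatty acid synthesis. Libraries with more RNA of the sterol synthesis genes thus had less of Cyp46a1 within each group.

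The cell type markers are given beside these values. Over the 6 lists, 17 of 39 were higher and 5 lower, but 12 higher and 13 lower with the libraries centred, 12 and 12 with quantile normalization, and 12 and 8 with the GC trend removed. Of the oligodendrocyte list, 2 of 11 genes were higher, 1 lower and 8 not past the test, with a median of -0.066, or -0.12 with the libraries centred. Its summed level, the sum of 2 to the power of each value, was 43300 to 71500 in sham (median 54000) and 44500 to 70200 in HF-HI (median 59500), and its most abundant gene, Mbp, rose by 0.39 (limma, adjusted p = 3.94e-04). Of the astrocyte list, 5 of 10 were higher, 2 lower and 3 not past the test, with a median of 0.041 that turned to -0.011 with the libraries centred and -0.065 with quantile normalization. Its summed level was 86100 to 91600 in sham and 91600 to 97500 in HF-HI, mostly from Slc1a2. Slc1a2 was higher by 0.073 (adjusted p = 0.0323, in a range over all alternatives from 6.21e-05 to 0.518), but by 0.021 with the libraries centred and by -0.29 with quantile normalization. Its call was also lost without any 1 of sham replicates 3, 6, 7 and 9 and HF-HI replicates 2, 3, 4 and 10, with values from 0.062 to 0.070, so no direction is given for it. Of the neuron list, 7 of 12 were higher, 1 lower and 4 not past the test, with a median of 0.13 (0.078 with the libraries centred) and differences from -0.097 to 0.89, and its summed level was 107000 to 115000 in sham and 115000 to 127000 in HF-HI. Its largest rises were those of Slc17a7 (0.89), Rbfox3 (0.83), Stmn2 (0.70) and Syn1 (0.40). With the GC trend removed these were 0.71, 0.57, 0.79 and 0.17, and Syn1 no longer passed (limma, adjusted p = 0.0771). Map2, the most abundant gene of the neuron list and the 1 that was lower, fell by 0.097 (adjusted p = 0.00175) and by 0.028 with the GC trend removed, which did not pass (adjusted p = 0.321, in a range over all alternatives from 5.28e-05 to 0.486). Of the 2 microglia markers measured, 1 was higher and 1 lower, the higher one no longer past the test with the GC trend removed (-0.0038), and their summed level was 1480 to 1690 in sham and 1370 to 1590 in HF-HI. Of the 2 endothelial and mural markers 1 was higher, with a summed level of 1530 to 1790 in sham and 1580 to 1850 in HF-HI, and the more abundant one, Rgs5, differed by -0.049 (adjusted p = 0.297), or by 0.063 with the GC trend removed and -0.10 with the libraries centred, where it passed (adjusted p = 0.0378, in a range over all alternatives from 0.0378 to 0.556). Of the 2 OPC markers 1 was higher, though not past the test with the GC trend removed (0.0091), with a summed level of 818 to 1020 in sham and 884 to 1050 in HF-HI, and the more abundant one, Pdgfra, differed by -0.080 (adjusted p = 0.103). Pdgfra was lower and passed with the GC trend removed (-0.11), with the libraries centred (-0.13), with quantile normalization (-0.12) and without sham replicate 10 (-0.098), in a range of adjusted p over all alternatives from 0.00693 to 0.296. The part of these markers in the differences of the sterol genes was not tested.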

How the data were processed

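The deposited values are on a log2 scale: the authors aligned reads to mm10 with STAR, counted transcripts with eXpress, scaled by DESeq2 size factors and applied its variance-stabilizing transformation. The table's 21 columns were matched to the labels, with 0 unmatched. R 4.3.3 with limma 3.58.1 gave the two-sided moderated test of HF-HI against sham (trended eBayes) over all 5544 genes with Benjamini-Hochberg adjustment, and a gene passed at adjusted p under 0.05. limma stands in for a count model, since counts were not available here. Correlations used two-sided permutation tests with 100000 resamples. GC content, lengths and positions are from GENCODE mouse annotation, and GC trends were removed by lowess with a span of 0.3. Genes named were the members, per pathway list up to 4 further genes with the largest absolute difference among those past the test, enzyme genes not past it, the most abundant gene of each marker list, and the 10 genes most like the members. Not every gene that this rule gives is described. Other genes, and pathway genes placed on the likeness measure, were named from their lists. Members and lists were chosen with earlier results of these data known. Python 3.11.15 was used.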

Additional observations from a re-analysis of the deposited data

Results flagged for a closer look

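Fdft1 in sham replicate 1 was 9.46, away from the other sham libraries (9.24 to 9.35). The gap to the nearest library was 0.495 of the range of the group. Of 43 sets of 10 sham libraries examined in this way, 1 showed such a gap, and chance gives one in about 5% of sets. Without sham replicate 1, Fdft1 was lower in HF-HI by 0.091 (limma, adjusted p = 0.0364). The HF-HI group, with 11 libraries, was not examined in this way.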

How the results depend on the processing

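The alternatives were another threshold, a minimum difference, eBayes without a trend, a rank-sum test, median centring, quantile normalization, leaving out low genes, a replicate block, GC trend removal, relative depth as a covariate and leaving out each library. Of the main counts and medians, 153 values stayed near the main one in size, 5 were weaker and 1 moved. Size is not direction: with medians centred, markers went from 17 higher and 5 lower to 12 and 13, and the sterol genes from 1 and 3 to 0 and 4. Of the values for single genes, ratios and likenesses, each gene counted once per alternative, 1828 were the same, 62 weaker, 10 stronger, 20 reversed and 3 moved. A minimum difference of 0.25 left 1433 genes in all, 1 of the 7 sterol genes (Msmo1), 9 pathway genes and 13 markers, by its construction. With relative depth regressed out, chosen after seeing the data, the median r in HF-HI was 0.850.

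With replicate number as a block and the unpaired library left out, 2 of the 7 sterol genes passed. Residuals of libraries with the same number had r of -0.310 to 0.364 (median -0.135) over 10 numbers, and 4 were over 0.1. Of the sham libraries, 0 were closest to the HF-HI library of their own number. No pairing by number was seen. These values cannot decide whether samples were paired, since differences of whole libraries, such as the GC slope, enter the same r.

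Reversed values were: for Sqle, -0.049 with medians centred, -0.030 with quantile normalization, -0.0020 with depth, and -0.025 to 0.027 when each library was left out; for Lss, -0.028 centred, -0.011 quantile, -0.014 with the GC trend removed and -0.018 with that and the block; for Sc5d, -0.033 centred, -0.014 quantile, and -0.0011 to 0.032 when each library was left out, the lowest without HF-HI replicate 9; for Slc1a2, -0.29 quantile; for Rgs5, 0.063 with the GC trend removed and 0.067 with that and the block. The reversed values for Sqle without 1 library ran from -0.025 to -0.0034. The cause was not tested. Depth is known only relatively, so the precision it sets for single values is unknown.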
